A study of Homo sapiens with 11 samples.

Results

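The unfolded protein response is started by a small set of genes, of which 8 were taken by name from the 38021 genes of the count table: ATF6, ATF6B, ERN1, XBP1, MBTPS1, MBTPS2, CREB3 and CREB3L2. Each matched 1 entry. RNA was sequenced from HEK293T, an established human embryonic kidney line with a WT genotype label, after 6 h with a compound or with vehicle (0.1% DMSO). The compounds were thapsigargin (Tg, spelled Thapsigargain in the labels) at 500 nM, AA147 at 10 µM, and AA132 at 0.1, 0.3, 1, 3, 6, 10, 15 or 30 µM, so that all 11 conditions share 1 cell line and 1 time. The labels list 1 sample for each condition, but the deposited counts have 33 numbered columns, 3 per condition, which are called libraries here. Whether the 3 are separate cultures is not stated, so every p-value measures only the spread between these libraries, which may be technical.

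When unfolded protein builds up in the endoplasmic reticulum (ER), membrane sensors pass the signal to the nucleus. ATF6 and its relative ATF6B travel to the Golgi, where the site-1 protease (MBTPS1) and the site-2 protease (MBTPS2) cut them and free a transcription factor. ERN1 encodes IRE1, a kinase and RNase that removes a short intron from XBP1 mRNA, which turns its product into the active factor XBP1s. CREB3 and CREB3L2 encode ER membrane factors related to ATF6, which the same proteases can release. Thapsigargin blocks the calcium pump of the ER and so stresses the whole organelle, while AA147 and AA132 come from a search for compounds that activate ATF6 signalling. Activation of these proteins by cutting, transport or phosphorylation is not seen in mRNA counts, so the values below are mRNA levels only.

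Library totals ran from 32.3 M to 37.96 M counts (M, mega), and the second lowest was 36.4 M. A member had between 133 counts in a library (ERN1, the scarcest) and 13554 (XBP1). The labelled line was checked on genes known from it. VIM lay between 702 and 1555 counts scaled to the TMM-adjusted library total (CPM, the unit of all levels here), NEFL, NEFM, NEFH, LHX1 and EYA1 were present in every library, and PAX2 had a median of 0.97 CPM. The 4 blood markers summed to at most 0.133 CPM in any library, the 3 endothelial ones to at most 2.23 CPM and the 2 liver ones to at most 0.186 CPM. Of 4 fibroblast markers COL1A1 was present, at a median of 37.1 CPM. LUM was low, at a median of 0.93 CPM, but present in every library. The median of COL1A2 and of DCN was 0. The 4 summed to 19.9 to 20.7 CPM under Tg and 40.9 to 51.1 CPM in vehicle. Summed over the 8 line markers, Tg libraries held 847 to 889 CPM against 1277 to 1577 CPM in vehicle, and the part of this in any result was not tested.

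Vehicle library 1 stood apart from its group. Its counts differed from vehicle libraries 2 and 3 with a chi-square per degree of freedom of 59.4 and 46.2, where libraries 2 and 3 gave 7.47 between them and counting error alone gives about 1. AA147 library 1 (23.0 and 22.1) and AA132 10 µM library 1 (36.1 and 33.7) were further from their groups than most. In vehicle library 1 long transcripts were low. The longest quintile of genes (at least 5.75 kb) lay 0.55 log2 units below the shortest quintile (up to 1.72 kb), each gene set against its own median over the 33 libraries. In the other 32 libraries this difference ran from -0.22, in AA132 30 µM library 3, to 0.13. Among members, CREB3L2 (7.44 kb), ATF6 (7.47 kb), ERN1 (7.89 kb) and MBTPS2 (4.45 kb) each had their lowest value of all 33 libraries in vehicle library 1. CREB3 (1.496 kb), the shortest, was higher there than in vehicle libraries 2 and 3. MBTPS1 (4.38 kb), close to MBTPS2 in length, was not low there, at 314, 313 and 299 CPM in vehicle libraries 1, 2 and 3. The part of transcript length in these values was not tested. Results are given with all libraries, and some of them also without vehicle library 1.

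**Figure D1:**
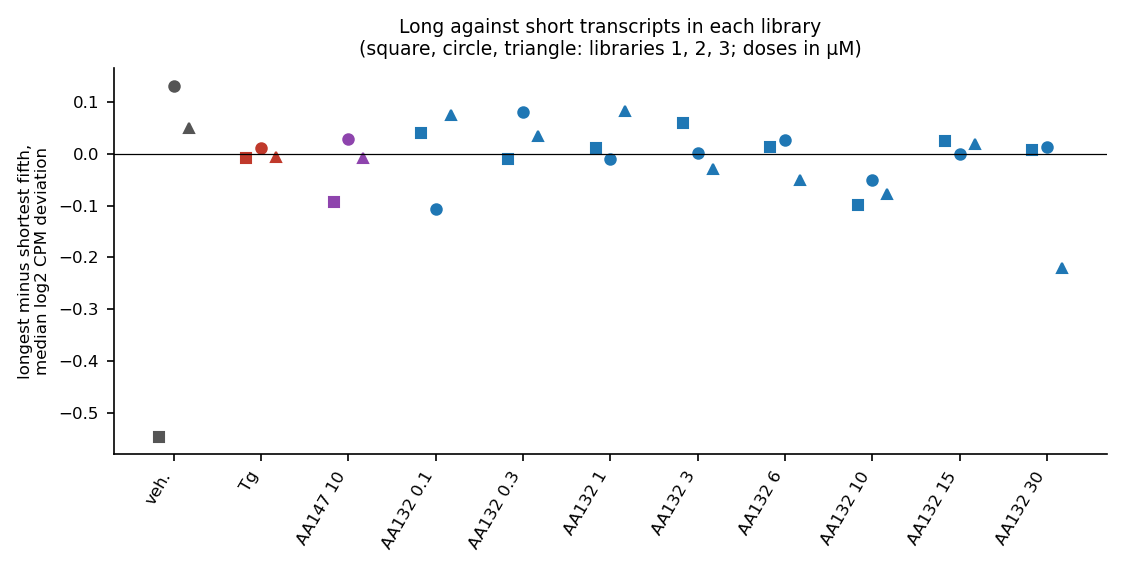
Median log2 deviation of the longest quintile of genes minus that of the shortest quintile (y axis, log2 units) in each of the 33 libraries, grouped by condition, with squares, circles and triangles for libraries 1, 2 and 3. Vehicle library 1 lies at -0.55, and the other libraries lie between -0.22 and 0.13.

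Tg changed the mRNA of 7 of the 8 members: XBP1, CREB3L2, ERN1, ATF6, MBTPS2 and CREB3 rose and MBTPS1 fell. The edgeR quasi-likelihood test, with Benjamini-Hochberg adjustment over all 17793 genes tested and a threshold of 0.05, called 6 members higher and 1 lower. Over all genes it called 16.2% higher and 15.0% lower. With AA132, XBP1 was the 1 member called higher at 3 µM, where 0.118% of all genes were called, and at 6 µM, where 1.07% were. It was also the 1 member called higher at 10 µM, with 1.03% of genes higher and 0.371% lower, and at 15 µM, with 2.76% of genes called. At 30 µM 2 members were called higher, XBP1 and ATF6, against 3.86% of genes higher and 3.19% lower. No member was called lower at any dose. At 0.1, 0.3 and 1 µM and with AA147 edgeR called 0 members, as it called 0%, 0%, 0% and 0.0225% of all genes. Without vehicle library 1 the same 7 members were called under Tg. In bulk RNA, fewer cells of a kind and less of an mRNA per cell cannot be told apart.

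**Figure D2:**
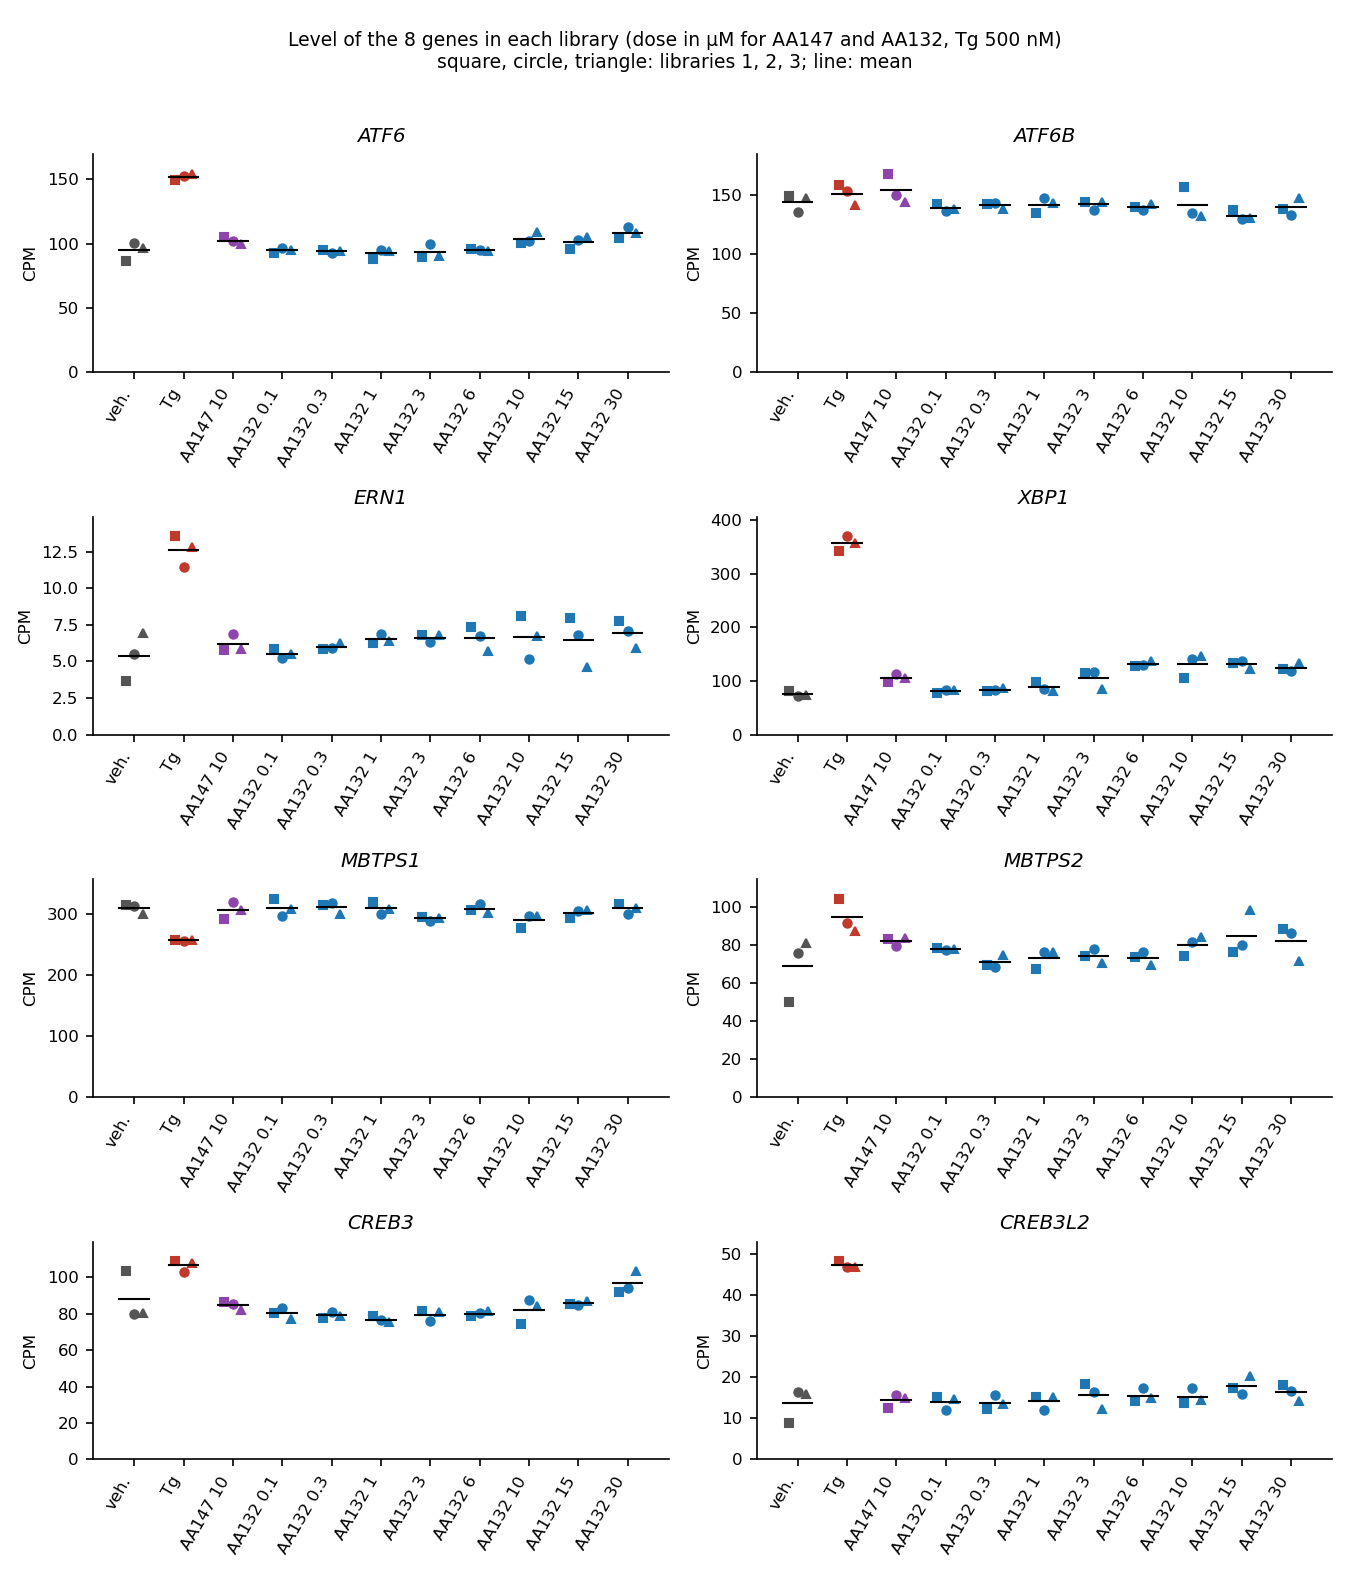
Level in CPM (y axis, from 0) of each member in the 33 libraries by condition, with squares, circles and triangles for libraries 1, 2 and 3 and a line at the mean. XBP1, ERN1, ATF6 and CREB3L2 have all 3 Tg libraries above every other library, and MBTPS1 has all 3 Tg libraries below every other library.

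In vehicle the members differed widely in abundance per length (CPM per kb of the Ensembl canonical transcript, mean ± SD, n = 3). MBTPS1 had the highest mean, 70.5 ± 1.87. CREB3 at 58.8 ± 8.93 and ATF6B at 54.8 ± 2.70 followed, and these 2 did not differ beyond their spread. All these means include vehicle library 1, where CREB3 held 103 CPM against 79.8 and 80.6 CPM in vehicle libraries 2 and 3. The order of the members without that library is not given. XBP1 stood at 42.3 ± 3.07. MBTPS2 at 15.5 ± 3.75 and ATF6 at 12.7 ± 0.951 were within their spread of each other. CREB3L2 at 1.84 ± 0.574 and ERN1 at 0.684 ± 0.209 were the scarcest. Under Tg the order began with XBP1 at 199 ± 7.45, ahead of CREB3 at 71.3 ± 2.10 and MBTPS1 at 58.6 ± 0.226 CPM per kb. The isoforms in use are not known, so a level per length rests on the canonical transcript.

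ATF6, the sensor that gives the response arm its name, lies at chr1:161766298-161977574 on the plus strand of GRCh38. Its level was 86.8, 101 and 96.6 CPM in vehicle and 149.7, 152 and 154 CPM under Tg. All 3 Tg libraries lay above all 30 others. The rise was 0.68 on the log2 scale (SE 0.06, edgeR adjusted p = 2.47e-11), a 1.61-fold change. AA147 libraries held 105, 102 and 99.5 CPM, which overlapped vehicle (log2 difference 0.11, edgeR adjusted p = 0.751). At AA132 doses from 0.1 to 6 µM ATF6 stayed within 88.3 and 99.3 CPM. It then stood at 100.3, 102 and 109 CPM at 10 µM, 95.5, 103 and 106 CPM at 15 µM and 105, 113 and 108 CPM at 30 µM. Only the 30 µM libraries were all above vehicle, and there ATF6 rose by 0.20 (SE 0.06, edgeR adjusted p = 0.0338). That call was lost without vehicle library 1 (0.14, edgeR adjusted p = 0.128), without AA132 30 µM library 2 (adjusted p = 0.155) or 3 (adjusted p = 0.0758) and without vehicle library 3 (adjusted p = 0.0511). It was lost as well with no filter on low counts or with the 2 conditions alone.

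ATF6B, whose product is cut like ATF6 and is known as the weaker activator, was the member that Tg did not call. Vehicle libraries held 149, 136 and 147.4 CPM and Tg libraries 158, 153 and 141 CPM, and the groups overlapped. The log2 difference was 0.07 with a 95% interval of -0.07 to 0.20 (edgeR adjusted p = 0.476). Across the 24 AA132 libraries ATF6B ran from 129 to 157 CPM, and its difference from vehicle was not called at any of the 8 doses. Its exons overlap those of TNXB and of a long noncoding RNA gene on the same strand in GENCODE v44. Reads in the shared stretches cannot be assigned with certainty.

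Within a library the ratio of ATF6 to ATF6B needs no scaling between libraries, though the 2 transcripts differ in length (7.47 and 2.63 kb). Its log2 value was -0.78, -0.43 and -0.61 in vehicle and -0.08, -0.01 and 0.12 under Tg. The Tg ratios lay above those of all other libraries. At 30 µM AA132 the log2 ratio was -0.40, -0.23 and -0.45, and 2 of these 3 values lay above all 3 vehicle values. With AA147 it was -0.67, -0.55 and -0.53, inside the vehicle range. The low end of that range is vehicle library 1, which had the lowest ratio of all 33 libraries. The AA147 value of -0.67 lay below vehicle libraries 2 and 3. The part of transcript length in the ratio was not tested.

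Partners that hold ATF6 in the ER, reduce it or carry it to the Golgi formed a list of 15 genes. Under Tg 13 of 15 rose and 0 fell, where 16.2% of all genes rose and 15.0% fell. The median log2 difference was 0.67 against 0.00 over all genes tested. Leaving out vehicle library 1 gave 12 that rose and 1 that fell, beside 28.4% of all genes in either direction. The 1 that fell was SEC24B, another coat adaptor, named after its values were seen. HSPA5, the chaperone BiP that binds the sensors, rose by 3.52 (SE 0.17, edgeR adjusted p = 1.97e-17), from 959 ± 72.6 to 11019.7 ± 276 CPM (SD, n = 3). SEC24D, a cargo adaptor of the vesicles that leave the ER, rose by 2.72 and SEC31A, of their outer coat, by 1.07 log2 units. PDIA6, a disulfide isomerase, rose by 1.41, and is counted in the IRE1 list too. AA132 at 10 µM called 3 of the 15 higher and at 30 µM 4, beside 1.03% and 3.86% of all genes, with medians of 0.06 and 0.10. For AA147 the calls among the 15 were 0 with edgeR, 4 at an unadjusted p under 0.05 and 1 with DESeq2 (HSPA5). HSPA5 rose by 1.36 and 1.46 at 10 and 30 µM of AA132, while with AA147 its difference was 0.70 (edgeR adjusted p = 0.114). SEC24D was at 0.24 (edgeR adjusted p = 0.167) at 10 µM and rose by 0.43 at 30 µM. SEC31A was not called at either dose.

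ERN1, the gene for IRE1, lies at chr17:64039080-64130819 on the minus strand and was the scarcest member. It held 3.68, 5.54 and 6.97 CPM in vehicle and 13.5, 11.5 and 12.8 CPM under Tg. No Tg library fell below 11.5 CPM and no other library exceeded 8.08 CPM. ERN1 rose 2.33-fold under Tg (1.22 on the log2 scale, SE 0.17, edgeR adjusted p = 8.86e-07), and 1.00 log2 units without vehicle library 1. At AA132 30 µM the libraries held 7.78, 7.08 and 5.94 CPM and overlapped vehicle. The difference there was 0.36 with a 95% interval of 0.003 to 0.716 (edgeR unadjusted p = 0.048, adjusted p = 0.239), and 0.15 without vehicle library 1. With AA147 ERN1 held 5.77, 6.88 and 5.84 CPM, within the vehicle range. With AA132 no difference of ERN1 from vehicle was called at any dose. ERN1 counts ran from 133 to 499 per library, and the part of depth was not tested. Exons of a long noncoding RNA gene lie opposite those of ERN1 in GENCODE v44, and the use of strand in counting is not given.

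XBP1 gave the largest change of the set. It lies at chr22:28794555-28800597 on the minus strand, and the stretch that IRE1 removes is 26 bases at chr22:28796127-28796152 of GRCh38. The stretch is printed because the counts cannot see it: they are summed per gene and do not part spliced from unspliced mRNA. It is in capitals between 15 bases of coding sequence on each side (chr22:28796112-28796167, minus strand), and 26 is not a multiple of 3, so its removal shifts the reading frame. The annotated exons leave this gap 1 base further upstream in the mRNA, which gives the same spliced letters. Of 7 such equal placements the one shown has the known IRE1 site, CNG before and CAG after the cut, at both ends.
XBP1 intron: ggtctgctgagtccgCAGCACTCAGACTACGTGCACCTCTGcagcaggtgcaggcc
The 250 bases before the start of XBP1 (RefSeq, GRCh38.p14, chr22:28800570-28800819, minus strand) hold 1 ER stress element, the motif that ATF6 with NF-Y is known to bind, in capitals.
XBP1 promoter: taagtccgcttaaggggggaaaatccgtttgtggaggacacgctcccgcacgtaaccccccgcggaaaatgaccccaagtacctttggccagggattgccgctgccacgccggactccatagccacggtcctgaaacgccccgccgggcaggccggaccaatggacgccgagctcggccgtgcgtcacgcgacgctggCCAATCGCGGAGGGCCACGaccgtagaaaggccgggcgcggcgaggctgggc
The motif was searched as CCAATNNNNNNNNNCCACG on both strands in 300-base windows around gene starts. It was found in 27 of 35116 windows (0.0769%), and in 1 of the 10 windows of the members, that of XBP1, at bases -52 to -34 from the start. The ERSE-II motif (0.0541% of windows) and TGACGTGG, called UPRE (0.729%), were in no member window. A match is a description of the letters, not evidence of binding.

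XBP1 mRNA stood at 82.0, 72.0 and 73.2 CPM in vehicle and at 343, 369.8 and 358 CPM under Tg. The 3 Tg libraries were far above all others. XBP1 rose 4.71-fold (2.24 on the log2 scale, SE 0.10, edgeR adjusted p = 3.48e-18).

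At the lowest doses of AA132 XBP1 held 78.4, 83.1 and 82.8 CPM (0.1 µM), 81.8, 82.3 and 86.6 CPM (0.3 µM) and 98.2, 85.5 and 81.5 CPM (1 µM), overlapping vehicle each time. At these 3 doses, where edgeR called 0 of the 8 members, the members with an unadjusted p under 0.05 numbered 0, 1 and 2. DESeq2 called no member there either, and 1, 6 and 0 of all genes. At 3 µM XBP1 held 115, 116 and 85.5 CPM, all above vehicle though the third library only slightly. It rose by 0.48 (SE 0.10, edgeR adjusted p = 0.0351). Leaving out 1 library at a time ended this call in 12 of 33 cases: without 3 µM library 1 its adjusted p was 0.398, without 3 µM library 2 it was 0.337, without vehicle library 2 or 3 it was 0.122 and 0.105, and without any 1 of 8 libraries of other conditions it lay between 0.0506 and 0.0642.

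From 6 µM upward the XBP1 levels formed a plateau within their spread. At 6 µM the libraries held 128, 130.3 and 136 CPM, and at 10 µM 105, 142 and 146 CPM. At 15 µM they held 134, 137 and 123 CPM, and at 30 µM 122, 119 and 134 CPM. These 4 groups overlap each other, and every one of their 12 libraries lies above every vehicle library. XBP1 rose by 0.80 at 6 µM (SE 0.10, edgeR adjusted p = 1.03e-05) and by 0.79 at 10 µM (adjusted p = 7.93e-06). The rise was 0.80 at 15 µM (adjusted p = 3.1e-06) and 0.72 at 30 µM (adjusted p = 8.62e-06). AA132 10 µM library 1, which stood apart from its group, held the lowest of the 12 values. In the 30 µM comparison without vehicle library 1, XBP1 and CREB3 were the 2 called, among 11.1% of all genes in either direction.

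**Figure D3:**
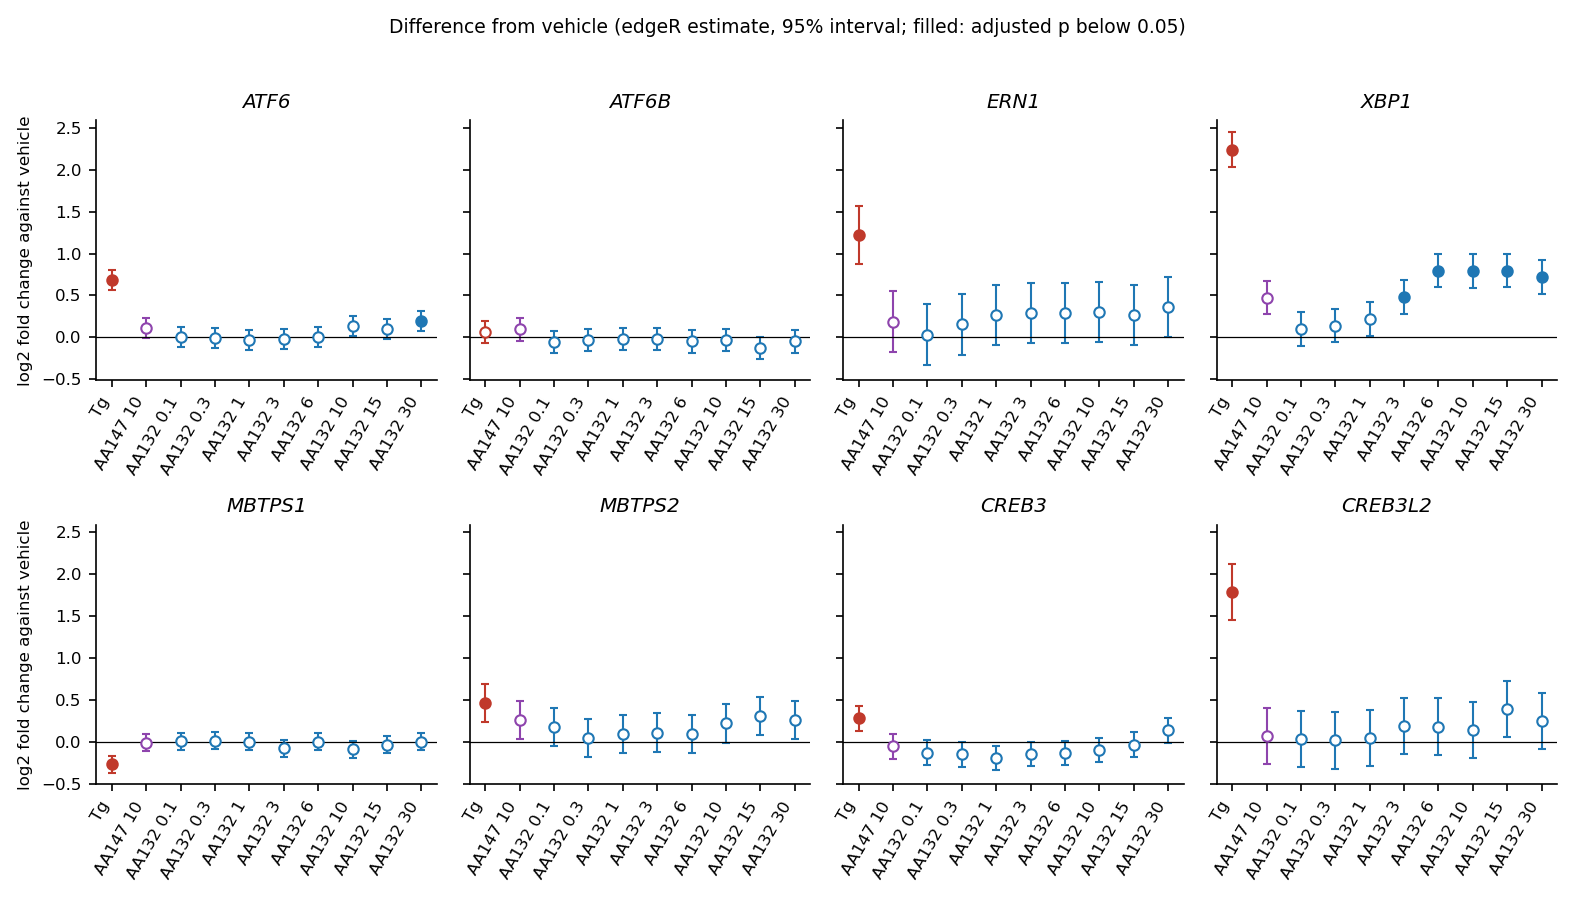
Log2 fold change against vehicle (y axis) of each member under Tg, AA147 and the 8 doses of AA132 (µM), with 95% intervals, filled where the edgeR adjusted p was below 0.05. XBP1 is filled from 3 µM of AA132 upward and lies between 0.72 and 0.80 from 6 µM, and all 10 comparisons share the same 3 vehicle libraries.

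AA147 at 10 µM left XBP1 at 97.7, 113 and 105 CPM, with all 3 libraries above vehicle. Its log2 difference was 0.48 with a 95% interval of 0.27 to 0.68, and the edgeR adjusted p of 0.0902 missed the threshold. edgeR called 0 of the 8 members, against 2 at an unadjusted p under 0.05 and 1, XBP1, with DESeq2 (adjusted p = 0.00708). Without vehicle library 1 edgeR called XBP1 (0.54, adjusted p = 0.0354), among 0.0608% of genes. Without AA132 10 µM library 1, AA132 3 µM library 3 or AA132 1 µM library 1 it was called too, with adjusted p-values of 0.0218, 0.00959 and 0.044.

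The compounds AA132 and AA147 were compared directly at their 1 matched dose, 10 µM, the only pair that the design allows. edgeR called 0 of the 8 members, 1 had an unadjusted p under 0.05, DESeq2 called 0, and 0.0674% of all genes were called. XBP1 was higher with AA132 by 0.32 on the log2 scale (95% interval 0.12 to 0.52, edgeR adjusted p = 0.308), and the libraries of the groups overlap. Without AA132 10 µM library 1 the difference passed, at an adjusted p of 0.0219. For the other 7 members the interval held 0: it was -0.10 to 0.14 for ATF6, the narrowest but for MBTPS1 at -0.18 to 0.02, and -0.24 to 0.47 for ERN1, the widest. A p that misses the threshold does not show that the compounds act alike, and at 10 µM both gave XBP1 levels above all vehicle libraries.

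IRE1 acts with an RNA ligase and with adaptors and regulators, a list of 13 genes. Under Tg 4 rose and 2 fell, where 16.2% of all genes rose and 15.0% fell, with a median log2 difference of 0.09 against 0.00 over all genes. The 4 that rose were SEC61A1 (1.47) and SEC63 (1.13) of the translocon, PDIA6, and UFL1 (1.15), a ligase of the UFM1 pathway. The 2 that fell, TRAF2 and MAP3K5, link IRE1 to kinase signalling and are named after their values were seen. They fell by 0.34 and 0.46 on the log2 scale (edgeR adjusted p = 0.00183 and 2.63e-05). Without vehicle library 1, 5 rose and 3 fell under Tg, beside 28.4% of all genes in either direction. At 30 µM of AA132 4 rose and 1 fell, beside 3.86% of all genes higher and 3.19% lower. SEC61A1 rose by 0.41, PDIA6 by 0.44 and SEC63 by 0.23, while UFL1 was at 0.14 (edgeR adjusted p = 0.602). The other 2 calls, named after their values were seen, were TMBIM6, an ER membrane regulator, which rose by 0.21, and DDX1 of the ligase complex, which fell by 0.17 on the log2 scale. Leaving out vehicle library 1, 4 rose and 2 fell at 30 µM, beside 11.1% of all genes in either direction. Those 2 were MAP3K5 and FAM98B, the latter named after its values were seen, and DDX1 was no longer called. At 10 µM PDIA6 alone was called (0.41), beside 1.03% of all genes higher and 0.371% lower. Without vehicle library 1, 1 gene rose and MAP3K5 fell at 10 µM, beside 3.60% of all genes in either direction. Of the 13, edgeR called 0 with AA147, DESeq2 called 0 and the unadjusted p was under 0.05 for 2.

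MBTPS1, the site-1 protease, was the 1 member that Tg lowered. It lies at chr16:84053761-84116942 on the minus strand. Vehicle libraries held 314, 313 and 299 CPM and Tg libraries 256, 255 and 257 CPM, with no overlap. MBTPS1 fell by 0.27 on the log2 scale (SE 0.05, edgeR adjusted p = 7.5e-05). With AA132 at 30 µM it held 316, 299.9 and 309.6 CPM, a difference from vehicle of 0.00 with a 95% interval of -0.10 to 0.10. At 3 µM MBTPS1 held 295, 288 and 293 CPM and at 10 µM 276, 297 and 296 CPM, all below the vehicle libraries, but neither difference was called (-0.08 and -0.09, edgeR adjusted p = 0.648 and 0.444). AA147 libraries held 292, 319 and 306 CPM, which overlapped vehicle. All 30 libraries other than Tg lay between 276 and 324 CPM.

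MBTPS2, the site-2 protease, which cuts after site-1 cleavage, lies at chrX:21839617-21885423 on the plus strand. It held 49.8, 75.8 and 80.9 CPM in vehicle and 104, 91.7 and 87.6 CPM under Tg. The Tg libraries lay above all vehicle libraries, and the first vehicle library was far below the other 2. MBTPS2 rose by 0.46 (SE 0.11, edgeR adjusted p = 0.00173) with all libraries and by 0.26 (adjusted p = 0.0232) without vehicle library 1. In a fit of the 2 conditions alone the call was lost (adjusted p = 0.0882). With AA132 at 30 µM MBTPS2 held 88.3, 86.5 and 71.7 CPM and the difference from vehicle was 0.25 (adjusted p = 0.18), and 0.07 without vehicle library 1. With no filter on low counts edgeR called it (adjusted p = 0.0462). With AA147 it held 83.3, 79.6 and 83.7 CPM, 2 of the 3 libraries above vehicle (0.26, adjusted p = 0.67). Without vehicle library 1 the AA147 difference was 0.07. Over the 24 AA132 libraries MBTPS2 ran from 67.2 to 98.6 CPM.

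The log2 ratio of MBTPS1 to MBTPS2 within a library was 2.65, 2.05 and 1.89 in vehicle and 1.30, 1.48 and 1.56 under Tg. All 3 Tg ratios lay below those of the other 30 libraries, also with vehicle library 1 set aside. At 30 µM AA132 the ratio was 1.84, 1.79 and 2.11, which overlaps vehicle.

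Other clients and cofactors of the 2 proteases, 7 genes of the sterol pathway and its kin, formed the next list. Under Tg 2 rose and 1 fell, where 16.2% of all genes rose and 15.0% fell, and the median was 0.03 against 0.00 over all genes. SREBF1, a sterol-regulated factor freed by the same cuts, rose by 1.17 (edgeR adjusted p = 2.39e-10) under Tg. It rose by 0.48 (adjusted p = 0.0158) and 0.61 (adjusted p = 0.000539) at 10 and 30 µM of AA132, and with AA147 the difference was 0.40 (adjusted p = 0.327). INSIG2, which retains the SREBP complex in the ER, rose by 0.37 and GNPTAB, a site-1 protease substrate of the lysosomal pathway, fell by 0.49 on the log2 scale under Tg. SREBF2 was at -0.12 (adjusted p = 0.0594). SREBF1 was the 1 gene of the 7 called at 10 and at 30 µM of AA132, beside 1.03% and 3.86% of all genes higher. Without vehicle library 1, 1 rose and 1 fell at 10 µM, and 2 rose and 1 fell at 30 µM. The gene that fell was GNPTAB at both doses. Of all genes 3.60% and 11.1% were then called in either direction. AA147 called 0 of the 7 with edgeR, 3 at an unadjusted p under 0.05 and 0 with DESeq2.

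CREB3 encodes a factor anchored in the ER membrane and lies at chr9:35732598-35736999 on the plus strand. It held 103, 79.8 and 80.6 CPM in vehicle and 109, 103 and 108 CPM under Tg, and the first vehicle library overlapped the Tg range. CREB3 rose by 0.28 (SE 0.07, edgeR adjusted p = 0.00308) with all libraries and by 0.40 (adjusted p = 4.47e-06) without vehicle library 1. The call was lost without vehicle library 2 (adjusted p = 0.0513) and in a fit of the 2 conditions alone (adjusted p = 0.128). At 30 µM of AA132 CREB3 held 92.0, 94.3 and 104 CPM and the difference of 0.14 was not called (adjusted p = 0.291). Without vehicle library 1 it was 0.27 and was called (adjusted p = 0.00406). At 1 µM CREB3 held 78.6, 76.6 and 75.3 CPM, below every vehicle library, with a difference of -0.19 that was not called (adjusted p = 0.791). Without vehicle library 1 that difference was -0.06. AA147 libraries held 86.2, 85.5 and 82.0 CPM and overlapped vehicle. An exon of GBA2 lies opposite CREB3 in GENCODE v44, and how the counting used strand is not given in the sources used here.

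CREB3L2, whose product is known for raising secretory capacity, lies at chr7:137874979-138002086 on the minus strand. It held 8.75, 16.4 and 15.8 CPM in vehicle and 48.1, 46.7 and 46.7 CPM under Tg. The 3 Tg libraries lay close together and far above all others. CREB3L2 rose 3.45-fold (1.79 on the log2 scale, SE 0.16, edgeR adjusted p = 1.24e-10), and 1.54 log2 units without vehicle library 1. This was the second largest rise among the members, so its promoter is shown as well (RefSeq, GRCh38.p14, chr7:138002087-138002336, minus strand, 250 bases before the start). The capitals mark a cyclic AMP response element.
CREB3L2 promoter: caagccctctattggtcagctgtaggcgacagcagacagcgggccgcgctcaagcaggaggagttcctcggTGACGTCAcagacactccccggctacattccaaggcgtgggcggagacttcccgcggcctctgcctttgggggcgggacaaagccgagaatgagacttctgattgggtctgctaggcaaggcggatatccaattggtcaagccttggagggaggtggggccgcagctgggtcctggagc
That element, TGACGTCA, reads the same on both strands and was counted once. It was found in 1.85% of the 35116 windows and in 1 member window, at bases -179 to -172.

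With AA132 the CREB3L2 libraries overlapped vehicle at every dose. Across the 24 AA132 libraries it ran from 12.0 to 20.4 CPM, and at 30 µM it was 18.1, 16.6 and 14.2 CPM. AA147 libraries held 12.4, 15.6 and 15.0 CPM and overlapped vehicle too. The difference at 30 µM was 0.25 with a 95% interval of -0.08 to 0.58 (edgeR adjusted p = 0.414), and 0.01 without vehicle library 1. The log2 ratio of CREB3L2 to CREB3 was -3.56, -2.28 and -2.35 in vehicle and -1.18, -1.14 and -1.21 under Tg. All 3 Tg ratios lay above those of the other 30 libraries.

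**Figure D4:**
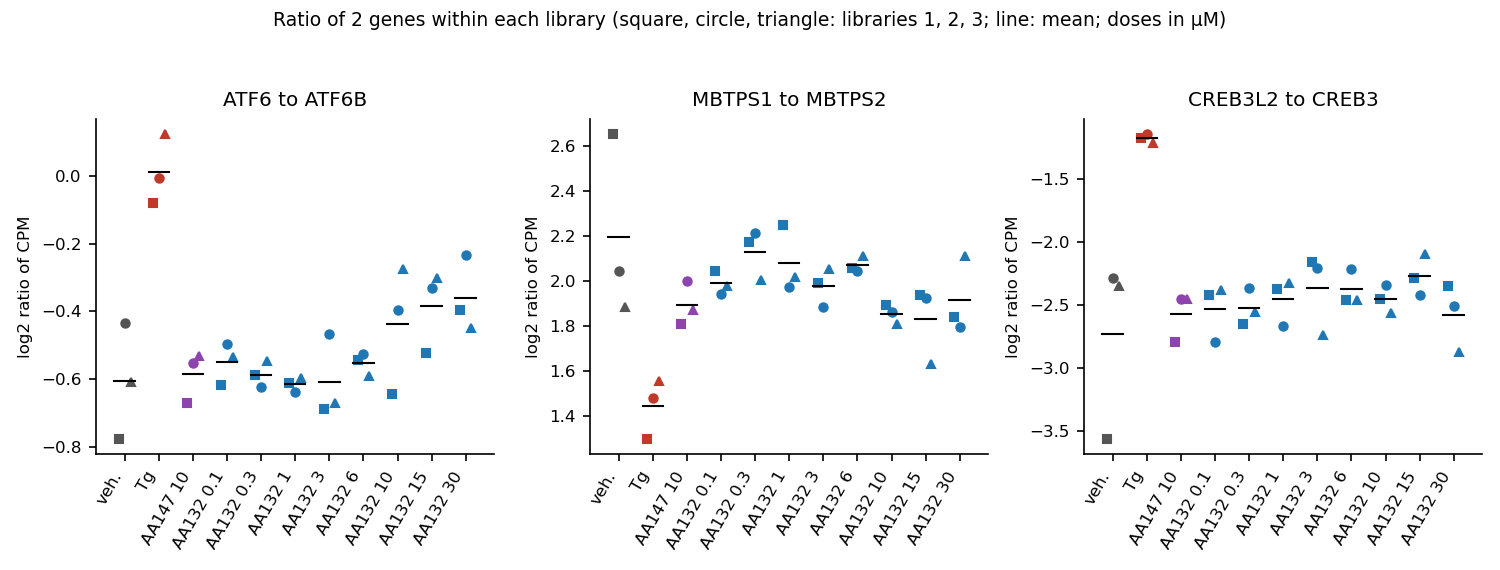
Log2 ratio of CPM within each library (y axis) for ATF6 to ATF6B, MBTPS1 to MBTPS2 and CREB3L2 to CREB3 by condition, with squares, circles and triangles for libraries 1, 2 and 3 and a line at the mean. Tg stands apart from every other library in all 3 panels. Vehicle library 1 is the library farthest from Tg in each panel, at -0.78, 2.65 and -3.56.

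Other sensors and CREB3 family genes numbered 9, of which ERN2 and CREB3L3 were too low to test. Under Tg 3 of 7 rose and 1 fell, beside the same 16.2% and 15.0% of all genes, with a median of 0.21 against 0.00. EIF2AK3, the gene for PERK, the sensor that slows translation, rose by 1.52 (edgeR adjusted p = 7.76e-18), from 38.2 ± 3.81 to 109 ± 5.08 CPM (SD, n = 3). ATF4, the factor downstream of PERK, rose by 1.08, and CREB3L4, a relative of CREB3, by 1.09. HCFC1, a cofactor that binds CREB3, fell by 0.22 on the log2 scale (adjusted p = 0.0451). At AA132 30 µM ATF4 rose by 0.45 (adjusted p = 8.62e-05). EIF2AK3 rose by 0.33 at 6 µM (edgeR adjusted p = 0.0114) and by 0.30 at 15 µM (adjusted p = 0.0161). It was at 0.24 at 10 µM, where DESeq2 called it (adjusted p = 0.0366) and edgeR did not (0.0917), and at 0.15 at 30 µM (edgeR adjusted p = 0.213). Its slope on log10 dose of AA132, 0.09, was called upward (edgeR adjusted p = 0.00601). With AA147 EIF2AK3 was at 0.13 and ATF4 at 0.05. For AA147 the calls among the 7 were 0 with edgeR, 0 at an unadjusted p under 0.05 and 0 with DESeq2.

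Cofactors that bind the ER stress element with ATF6 made a list of 6, of which 2 rose and 1 fell under Tg, beside 16.2% and 15.0% of all genes. Their median was 0.13 against 0.00. NFYC, a subunit of NF-Y, rose by 0.22 and SP1 by 0.46, while GTF2I fell by 0.50 on the log2 scale (edgeR adjusted p = 0.029, 0.00981 and 1.27e-07). NFYA, another subunit, was at 0.13 (adjusted p = 0.315). Without vehicle library 1 only 1 of the 6 was called, in the lower direction, against 28.4% of all genes. Of the 6, edgeR called 0 with AA132 at 10 µM, DESeq2 called 0 and the unadjusted p was under 0.05 for 1. AA132 at 30 µM called 0 of the 6 with edgeR, 1 at an unadjusted p under 0.05 and 0 with DESeq2. For AA147 the calls among the 6 were 0 with edgeR, 1 at an unadjusted p under 0.05 and 0 with DESeq2.

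Known targets of the 2 factors were read beside them. All 11 ATF6 targets rose under Tg, beside 16.2% of all genes, with a median of 2.59 against 0.00 over all genes. HERPUD1, of ER-associated degradation, rose by 4.12, and the chaperones PDIA4, HYOU1 and HSP90B1 by 2.86, 2.80 and 2.02. AA132 at 3 µM called 5 of 11 higher, at 6 and 10 µM 10 each and at 15 and 30 µM all 11. The medians were 0.42, 0.72, 0.75, 0.88 and 0.85. Of all genes, 1.03% and 3.86% were called higher at 10 and 30 µM. Called in either direction at 3, 6 and 15 µM were 0.118%, 1.07% and 2.76%. At 30 µM PDIA4 rose by 1.16 and HERPUD1 by 1.09. With AA147 all 11 differences were above 0 and the median was 0.37, and all 14 XBP1s targets were above 0 too, with a median of 0.13. Of the 11, edgeR called 0 with AA147, DESeq2 called 5 (HSPA5, PDIA4, HERPUD1, MANF, HYOU1) and the unadjusted p was under 0.05 for 9. Over all genes edgeR called 4, DESeq2 called 26 and 1211 had an unadjusted p under 0.05. MANF, a secreted ER factor, was named after its values were seen. Without vehicle library 1 edgeR called 2 with AA147 and 10 of the 11 at 30 µM of AA132, beside 0.0608% and 11.1% of all genes. Between AA132 and AA147 at 10 µM all 11 were higher with AA132, with a median difference of 0.37. Of the 11, 1 was called, HSP90B1 (5 without vehicle library 1), beside 0.0674% of all genes (0.293% without that library). Of the 14 XBP1s targets, 13 rose under Tg, beside the same 16.2% of all genes, with a median of 1.21. DNAJB9, a co-chaperone, rose by 2.64, SYVN1, the degradation ligase, by 1.78 and SSR1, of the translocon, by 1.35. AA132 called 2 of 14 at 10 µM and 6 at 30 µM (medians 0.15 and 0.23), beside 1.03% and 3.86% of all genes higher. Setting vehicle library 1 aside gave 4 and 7, beside 3.60% and 11.1% of all genes in either direction. AA147 called 0 of the 14 with edgeR, 5 at an unadjusted p under 0.05 and 0 with DESeq2. HSPA5, CALR, SEC24D and SEC31A are in a target list and a partner list, and the comparisons with vehicle share its 3 libraries.

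Over the 24 AA132 libraries a slope on log10 dose was tested without vehicle. It called 4 members upward, against 9.83% of genes upward and 8.89% downward. Per unit of log10 dose XBP1 rose by 0.34 (SE 0.04, edgeR adjusted p = 3.77e-08), CREB3L2 by 0.12 (adjusted p = 0.0333), CREB3 by 0.08 (adjusted p = 0.0102) and ATF6 by 0.07 (adjusted p = 0.00635). Without the 30 µM dose only the XBP1 slope passed. The CREB3 slope was then 0.03 (adjusted p = 0.297) and the ATF6 slope 0.05 (adjusted p = 0.117). The CREB3L2 slope was no smaller without that dose, at 0.13, but its adjusted p was 0.0633. The slopes of ERN1 (0.11, adjusted p = 0.101) and MBTPS2 (0.06, adjusted p = 0.101) were not called.

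AA132 at its highest dose was set against Tg directly. The vehicle libraries are in neither group, but they enter the shared estimate of the spread and the scaling. edgeR called 5 of 8 members, 4 lower and 1 higher with AA132, where 15.5% of genes were lower and 14.3% higher. CREB3L2 was lower by 1.54 and XBP1 by 1.51. ERN1 was lower by 0.86 and ATF6 by 0.49, while MBTPS1 was higher by 0.27 log2 units. Their edgeR adjusted p-values were 3.96e-09, 7.62e-14, 0.000156, 4.94e-08 and 8.16e-05. ATF6B, MBTPS2 and CREB3 were not called, at -0.11, -0.20 and -0.14.

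**Figure D5:**
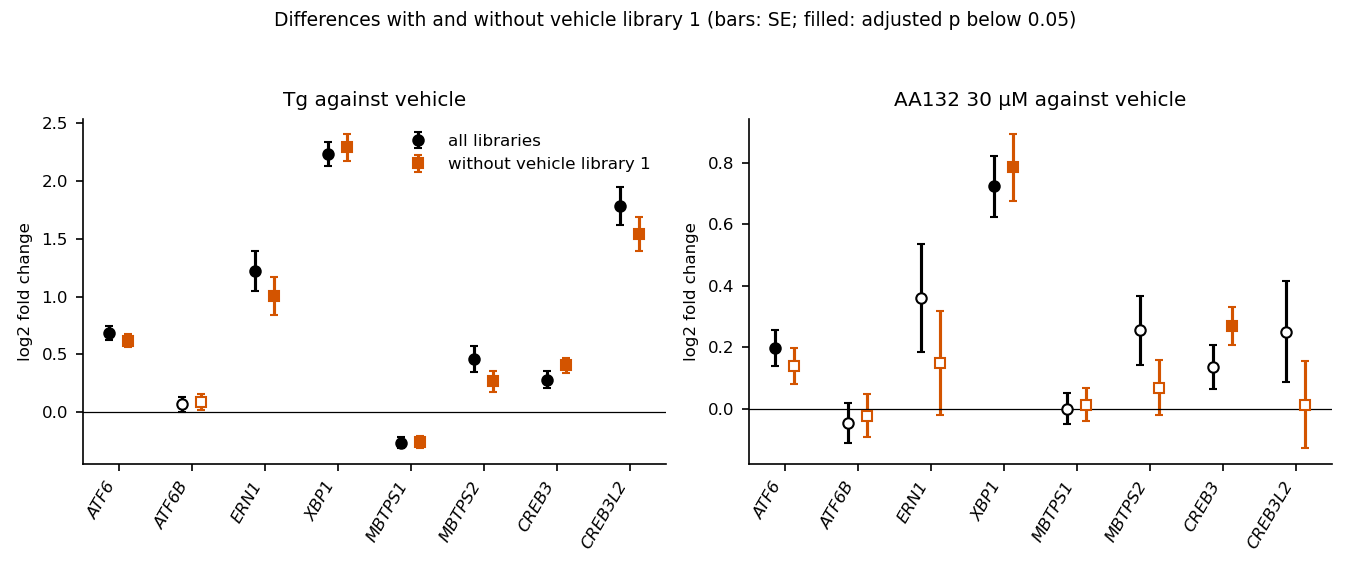
Log2 fold change (y axis, bars are SE) of each member under Tg and under AA132 at 30 µM, with all libraries (circles) and without vehicle library 1 (squares), filled where the edgeR adjusted p was below 0.05. Under Tg the same 7 members are filled both ways, and at 30 µM of AA132 ATF6 is filled with all libraries and CREB3 without vehicle library 1.

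Likeness between genes was described by Pearson r of mean log2 CPM over the 11 conditions, among 11236 genes with a mean of at least 5 CPM. The points share the same libraries and the same scaling, and Tg dominates them, so r is also given over the 10 other conditions. Closest to XBP1 over 11 conditions were SLFN13, PDIA6 and CANX (r = 0.99, 0.99 and 0.99). Over the 10 conditions without Tg they were MANF, SEL1L and CALR (r = 0.99, 0.99 and 0.99), all of them genes of the ATF6 target list. For ATF6 they were SEC61A1, OSTC and STT3A (r = 0.99, 0.99 and 0.99) with Tg and YIPF4, SC5D and CLDND1 (r = 0.99, 0.98 and 0.98) without it. CREB3L2 came closest to FAM129A, LARP6 and RNASEH1 (r = 1.00, 0.99 and 0.99) with Tg and to STK40 and PI4K2A (r = 0.96 and 0.96) without it. ERN1 was most like SLC43A1, EIF4EBP1 and ZNF790-AS1 (r = 0.98, 0.98 and 0.98) and, without Tg, TRIM74, C2CD5 and THAP6 (r = 0.94, 0.94 and 0.94). MBTPS1 followed APEX2 and USB1 (r = 0.97 and 0.97), and NSF, SMARCD1 and EGLN3 (r = 0.93, 0.92 and 0.92) without Tg. MBTPS2 lay closest to ALG11, SLCO4C1 and STT3B (r = 0.97, 0.96 and 0.95), and to GOLGA7, ALG11 and TMTC3 (r = 0.96, 0.95 and 0.95) without Tg. CREB3 was nearest to SMIM19, AIDA and POC1B (r = 0.97, 0.97 and 0.97), and to FAM173B, AIDA and LRCH4 (r = 0.98, 0.97 and 0.97) without Tg. For ATF6B the closest were ZNF256, UBE2E1 and DBNDD2 (r = 0.94, 0.92 and 0.91), and ZNF256, TEAD4 and UBE2E1 (r = 0.93, 0.91 and 0.90) without Tg. Between members, XBP1 and CREB3L2 had r = 0.95 over 11 conditions and 0.85 over 10, and ATF6 and ATF6B had 0.45 and -0.01.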

How the data were processed

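Total RNA was sequenced on a DNBSEQ instrument, per the labels. The authors deposited 1 table of expected counts per gene for 33 libraries. The submitters' processing notes name the build GRCh38.p7, while the aligner, counter, annotation and use of strand are not given in the sources used here. In the deposited expected counts the lowest value, 0.009, stands in place of 0 (43.5% of values) and was set to 0. Counts were rounded to whole numbers and 98 entries that share 45 names were summed, which left 38021 genes. CPM are counts divided by the library total times edgeR's TMM factor, on one scale for every library.

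Differences were tested with edgeR 4.0.16 in R 4.3.3 (TMM scaling, filterByExpr, quasi-likelihood test, no replicate block) in 1 fit of all 11 conditions, with Benjamini-Hochberg adjustment over 17793 genes and a threshold of 0.05. All 11 conditions share 1 estimate of the spread, so leaving out a library of one condition can move the p of another. The slope was fitted on log10 dose over the 24 AA132 libraries (17554 genes). DESeq2 1.42.0, other scalings, no filter, a replicate block, fits of 2 conditions and leaving out each library were alternatives. The scripts were tested on simulated data. A median over a list is given beside that of all genes, with no test of the list.

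The members were taken by name. Up to 4 genes a list were named by smallest adjusted p under Tg, with EIF2AK3 and ATF4 always, and the 3 genes most like each member by r (2 where the third is not reported here). Members and lists were chosen with earlier results of these data known. Of the gene names deposited, 28 appear as dates, none of them a member. Gene positions and transcript lengths come from GENCODE v44 on GRCh38, matched by symbol. Lengths were found for 14656 of the 17793 genes (82.4%). Promoters come from RefSeq, and 8 of 8 members matched.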

Additional observations from a re-analysis of the deposited data

How the results depend on the processing

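Each comparison was recomputed with another scaling (DESeq2's size factors or the upper quartile in edgeR), with DESeq2, with no filter on low counts, with the library number as a replicate block, with the 2 conditions alone, and with each library left out. No called difference or slope of a member changed sign under any of these. The number of members called with AA147 (0) became 1 with no filter and 1 with DESeq2, and 0 to 1 with a library left out. At 3 µM of AA132 (1) it became 0 with the upper quartile and 0 with the 2 conditions alone, and 0 to 1 with a library left out. At 10 µM (1) it became 0 with the 2 conditions alone, at 15 µM (1) it became 3 with no filter (XBP1, MBTPS2 and CREB3L2) and 1 to 2 with a library left out, and at 30 µM (2) it became 1 with the 2 conditions alone and 1 to 2 with a library left out. Without vehicle library 3, MBTPS2 was called at 15 µM (adjusted p = 0.037) and at 30 µM (adjusted p = 0.0429). At 15 µM the MBTPS2 difference was 0.30 with all libraries and 0.11 without vehicle library 1 (edgeR adjusted p = 0.588). That of CREB3L2 was 0.39 with all libraries and 0.15 without vehicle library 1 (adjusted p = 0.679). Between AA132 and AA147 (0) the number of members called became 1 with no filter and 0 to 1 with a library left out. The number of slopes called (4) became 1 without the 30 µM dose. The CREB3L2 slope lost its call without any 1 of 6 libraries, among them AA132 0.1 µM library 2 (adjusted p = 0.0849), and the ERN1 slope gained one without AA132 15 µM library 3 (adjusted p = 0.0227). The other settings left the number of members called within 1.5 times, but at 30 µM not always the same members. ATF6 lost its call and MBTPS2 gained one with no filter (adjusted p = 0.171 and 0.0462) and without vehicle library 3, and without vehicle library 1 ATF6 lost it (0.128) and CREB3 gained one (0.00406). Leaving out vehicle library 1 for the gene lists was chosen after seeing the data. Without it, 0.470%, 2.80% and 3.60% of all genes were called in either direction at 3, 6 and 10 µM of AA132. At 15 and 30 µM 3.51% and 11.1% were. Each of these shares is larger than with all libraries. Leaving that library out moved the calls of the IRE1 list at 10 µM from 1 to 2, with MAP3K5 called lower. It moved those of the ATF6 partner list between AA132 and AA147 from 0 to 1. For the protease list it moved them from 0 to 2 at 3 µM, from 1 to 2 at 6, 10 and 15 µM, and from 1 to 3 at 30 µM. At each of these doses 1 of the protease calls was GNPTAB, in the lower direction. For the sensor list it moved them from 0 to 1 at 10 µM and from 2 to 1 at 15 µM, and for the ER stress element list under Tg from 3 to 1. For the ATF6 targets it moved them from 0 to 2 with AA147 and from 1 to 5 between AA132 and AA147. For the XBP1s targets it moved them from 2 to 4 at 6 and at 10 µM and from 1 to 2 between AA132 and AA147. The cause of these changes was not tested, and a fit of 2 conditions also has fewer libraries. With the replicate block no member gained or lost a call, and XBP1 under Tg was at 2.24 (adjusted p = 5e-17). Same-numbered libraries did not deviate together (correlations of -0.147 to 0.183 over 36 pairs, 12 of them closest to their own number), so the numbers were not taken to pair the samples. ERN1 (from 133 counts in a library) and CREB3L2 (from 316) had the fewest counts of the members, and the part of depth in their errors was not tested. There were 3 libraries a group in every comparison.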
